A study of Sebastes mystinus with 44 samples.

Results

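The 150 assembled features described here were those whose RNA level in white muscle of juvenile blue rockfish (Sebastes mystinus) was lower after 2 weeks than after 12 h in each of 4 exposures, while the level at 24 h stayed, on average, near that at 12 h. They were the 150 highest scores among 7371 candidates, out of 239549 features in all. The level of a feature was its CPM, the count scaled to a library total of 1000000, taken as log2(CPM + 1) and averaged over the fish of an exposure and time. Candidates had a mean of 5 to 500 CPM over the 44 libraries and differed between 12 h and 24 h by less than 0.5 on the log2 scale in the mean of the exposures. The score was the smallest of the 4 differences of 12 h minus 2 weeks, so that a high score needs a fall in every exposure. The members were thus chosen by their levels at 12 h and 2 weeks and by the mean difference between 12 h and 24 h. These values are given below as descriptions, with no test. Differences between exposures at 24 h were not used in the choice.

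Juvenile fish lived in aquaria of 10 with flowing seawater at 11.4 to 12.3 °C. Exposures are named control, pH, in which carbon dioxide was bubbled to raise pCO2, DO, in which nitrogen was bubbled to lower oxygen, and cross, which the labels do not define. Muscle was sampled at 12 h, 24 h and 2 weeks, with 1 library for each fish. Of the 12 groups 9 had 4 fish, while pH and DO had 3 at 24 h and pH had 2 at 2 weeks. No genotype or treatment other than these is given, and the aquarium of each fish is not given in the sources used here. P-values treat fish as independent. Fish are named here as in the labels. Those of cross run from Mys7064 to Mys7079 and the rest from Mys13 to Mys60, and anything that goes with this numbering cannot be told apart from the exposure. Time likewise cannot be told apart from anything else that differed between sampling days.

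White muscle is the fast, mainly glycolytic tissue that makes up most of a fish's trunk and drives bursts of swimming. Low oxygen limits aerobic ATP production in it, and raised carbon dioxide acidifies the blood and the cells until ion exchange restores their pH. In a time course of this kind the control fish pass through the same days as the exposed fish, so a fall that the choice requires in all exposures, control included, is by construction not one of a particular exposure. The tables carry Trinity identifiers (names given by a de novo assembler, here at the assembler's own gene level) and no gene names, and no sequence was used here. Roles of members, pathway lists and cell type markers could therefore not be given, and the label white muscle was not checked against markers. In whole tissue, fewer cells of a type and less RNA per cell cannot be told apart.

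Libraries held 9884996 to 36692935 counts. The 100 features with the highest mean CPM over the 44 libraries took 40.7% to 63.7% of a library's counts. CPM of all other features therefore depends on how much these took. Scaling by the trimmed mean of M values (TMM), which lessens that dependence, moved the median of the candidates by -0.35 to 0.21 on the log2 scale in the differences between times. A control fish of 24 h, Mys25, was the lowest of its group in the members' mean log2(CPM + 1). It stood at 4.11, against 5.34 to 5.66 in the other 3 fish. Dixon's ratio, used for the check on outlying fish given near the end, did not mark it on that level.

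Levels of the members were moderate. The mean over all fish ran from 5.18 to 272 CPM with a median of 19.6. At 12 h the median member stood at 23.5 CPM, at 24 h at 27.4 CPM and at 2 weeks at 6.17 CPM, where 4 of the 150 had fallen below 1 CPM. The highest score was 3.30 and the last member's 0.77, against 0.76 for the next feature outside. On the log2 scale 83 members were lower at 2 weeks by at least 1 in every exposure and 8 by at least 2. For 126 of the 150 the smallest of the 4 differences was that of DO, against 12 for cross, 8 for control and 4 for pH, so the DO fish set the score of most members.

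The median member was lower at 2 weeks than at 12 h by 1.81 in control, 2.36 in pH, 1.10 in DO and 1.68 in cross, all as differences of log2(CPM + 1), while the medians of the 7371 candidates were -0.22, 0.29, -0.17 and 0.11. Under TMM scaling the members' medians were 2.01, 2.17, 1.29 and 1.68. The order of the exposures stayed the same, with pH at the top and DO at the bottom, and the pH value rests on 2 fish at 2 weeks. Without fish Mys53 it was 1.90 and without fish Mys54 it was 2.78. Falls in every exposure were not rare among the candidates, since 1584 of them had a score above 0 and 1502 were higher at 2 weeks in all 4 exposures.

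The difference of 24 h minus 2 weeks rests on the 2 week levels that the rule used, and on 24 h levels whose mean it held near that of 12 h, so it too is a description. It was above 0 in all 4 exposures for 149 members. Its medians were 2.03 in control, 2.14 in pH, 1.68 in DO and 1.36 in cross, or 2.08, 2.04, 1.52 and 1.25 under TMM scaling, and those of the candidates were -0.05, 0.17, 0.11 and 0.06 by library total. From 12 h to 24 h the median member moved by 0.25 in control, -0.25 in pH, 0.54 in DO and -0.38 in cross, and the candidates by 0.16, -0.14, 0.29 and -0.07. In control 104 of the 150 members and in DO 143 were above their level at 12 h, where 65.1% and 80.8% of the candidates were. In pH 38 members and in cross 33 were above it, where 34.1% and 40.9% of the candidates were. The rule bounds the mean of the 4 differences, and by library total the members' medians had the sign of the candidates' in each exposure. TMM scaling left the signs of the members' medians in place, at 0.12, -0.12, 0.19 and -0.49. The candidates' medians were then 0.04, -0.01, -0.06 and -0.17, so in DO members and candidates differed in sign.

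**Figure D1:**
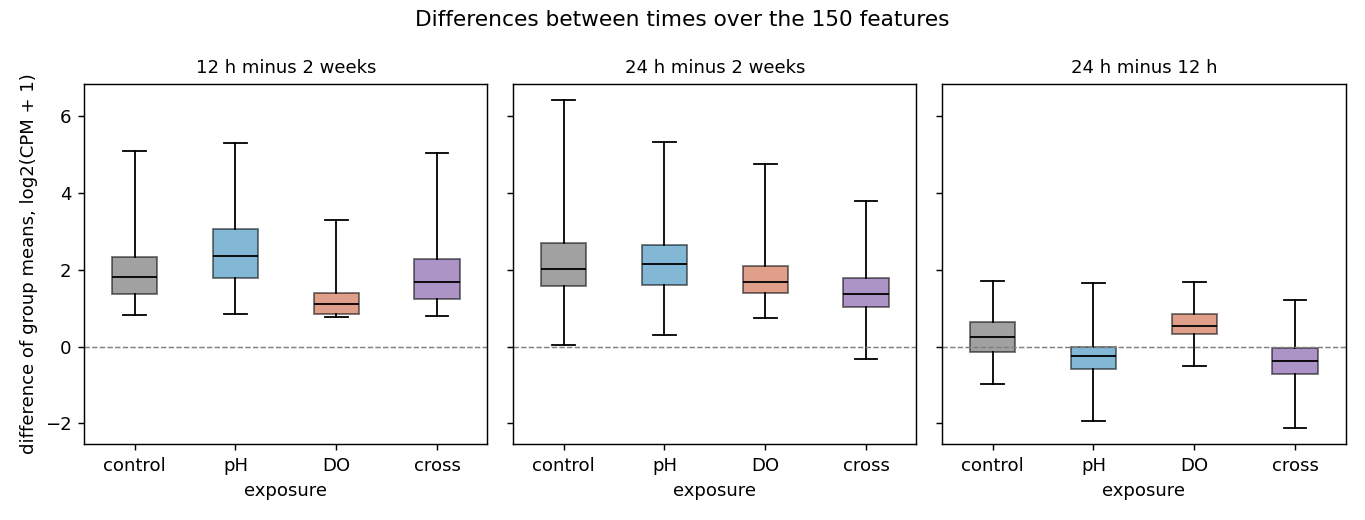
Differences of group means of log2(CPM + 1) between times for the 150 features, by exposure. Boxes span the quartiles with the median as a line, and whiskers reach the lowest and highest feature; 12 h minus 2 weeks chose the features, and its DO box sits lowest, with a median of 1.10.

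Summed over the 150 members, the level at 2 weeks was 1886 CPM ± 337 in control (SD, n = 4), 1216 ± 515 in pH (n = 2), 1824 ± 455 in DO (n = 4) and 2093 ± 865 in cross (n = 4). At 12 h the sums were 7624 ± 1278 in control, 7568.5 ± 1183 in pH, 4730 ± 1672 in DO and 8484 ± 1946 in cross, with 4 fish each. The DO mean at 12 h was thus the lowest of the 4, with fish Mys21 and Mys23 at 3247 and 3341 CPM. Fish Mys22 and Mys24 stood at 6422.5 and 5908 CPM. Fish Mys22 was above the lowest control, pH and cross fish of 12 h, at 6072, 6024 and 5931 CPM. Under TMM scaling fish Mys22 and Mys24, at 8069 and 7193 CPM, lay inside the control range of 5615 to 10371. Fish by fish, sums ran from 3247 to 10668 CPM at 12 h, with a median of 7223, from 4274 to 15079 at 24 h, with a median of 6510, and from 851 to 3367 at 2 weeks, with a median of 1770. The fish of 24 h and 2 weeks did not overlap. Those of 12 h and 2 weeks met only where DO fish Mys21 and Mys23 of 12 h lay below the highest cross fish of 2 weeks, fish Mys7076. Under TMM scaling the lowest sum at 12 h, 3793, was above the highest at 2 weeks, 2927.

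**Figure D2:**
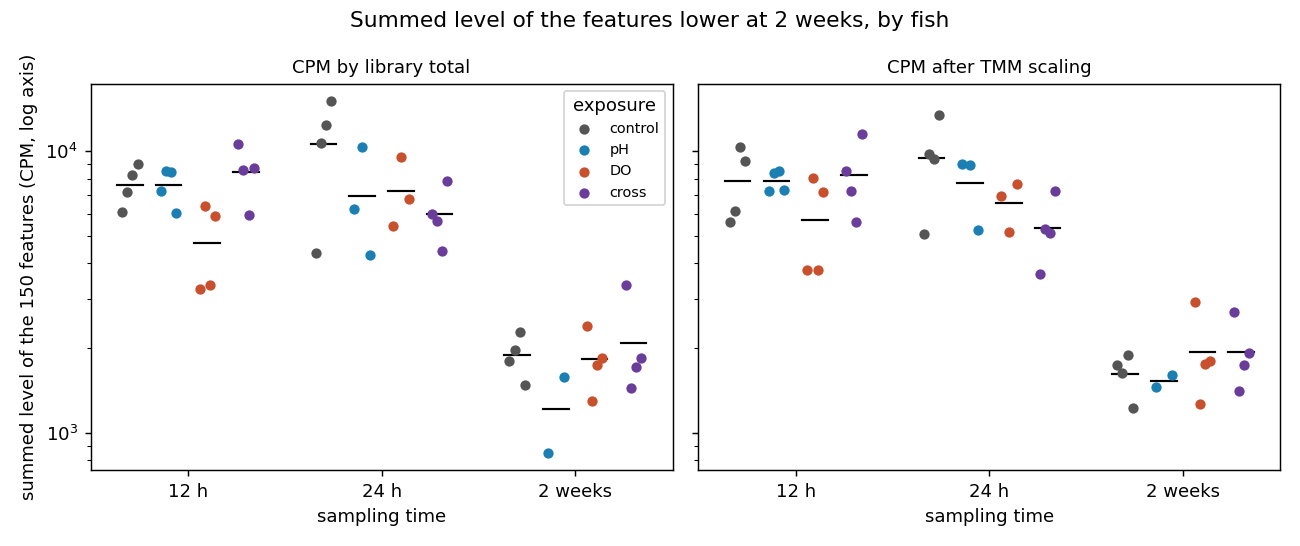
Summed CPM of the 150 features in each fish (points) with group means (bars), on a log axis, by sampling time and exposure, with library totals at left and TMM scaling at right. The 24 h fish, 4274 to 15079 CPM by library total, all lie above the 2 week fish, 851 to 3367 CPM, and the lowest control fish of 24 h is fish Mys25.

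Few members separated every fish of one time from every fish of another. All 16 fish of 12 h were above all 14 fish of 2 weeks in 13 of the 150 members, where 0.204% of the candidates did so, and the choice of members used this contrast. All 14 fish of 24 h were above all 14 of 2 weeks in 33 members, where 1.07% of the candidates did so, and the 2 week levels of this contrast were likewise used. Most members therefore fell in group means while individual fish of both times still overlapped.

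The highest score belonged to TRINITY_DN52062_c2_g2. Its CPM ran from 7.16 to 139.9 in the 16 fish of 12 h (median 43.2), from 14.3 to 381 in the 14 fish of 24 h (median 62.3) and from 0.11 to 6.09 in the 14 fish of 2 weeks (median 0.729). Every fish of 12 h and 24 h was above every fish of 2 weeks, the closest being DO fish Mys23 of 12 h at 7.16 and cross fish Mys7076 of 2 weeks at 6.09. Among its 12 h groups, DO had the lowest mean, with 9.04, 26.2, 7.16 and 43.9 CPM in fish Mys21 to Mys24. Fish Mys22 and Mys24 were above the lowest control and cross fish of 12 h, at 21.8 and 20.6 CPM. The 2 week values rest on few reads, 222 counts over the 14 libraries against 18633 over the 16 of 12 h.

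The most abundant member was TRINITY_DN54366_c2_g2, with a mean of 272 CPM. At 12 h its level ran from 94.3 to 616 CPM (median 328), at 24 h from 189.5 to 1048 (median 348) and at 2 weeks from 18.5 to 112 (median 35.9). The times met only between the 2 lowest DO fish of 12 h, at 99.2 and 94.3 CPM, and cross fish Mys7076 of 2 weeks at 112. The member with the next highest mean, 234 CPM, had medians of 305, 225 and 22.5 CPM at 12 h, 24 h and 2 weeks.

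At the other end of the list, the last member stood at a median of 65.1 CPM at 12 h, 67.5 at 24 h and 31.9 at 2 weeks, and the member before it at 12.7, 16.6 and 5.06. The first feature outside the list stood at 13.9, 19.2 and 6.51 CPM, and the next at 12.4, 16.1 and 2.88. Nothing but the rule's limit parts these 4 features.

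**Figure D3:**
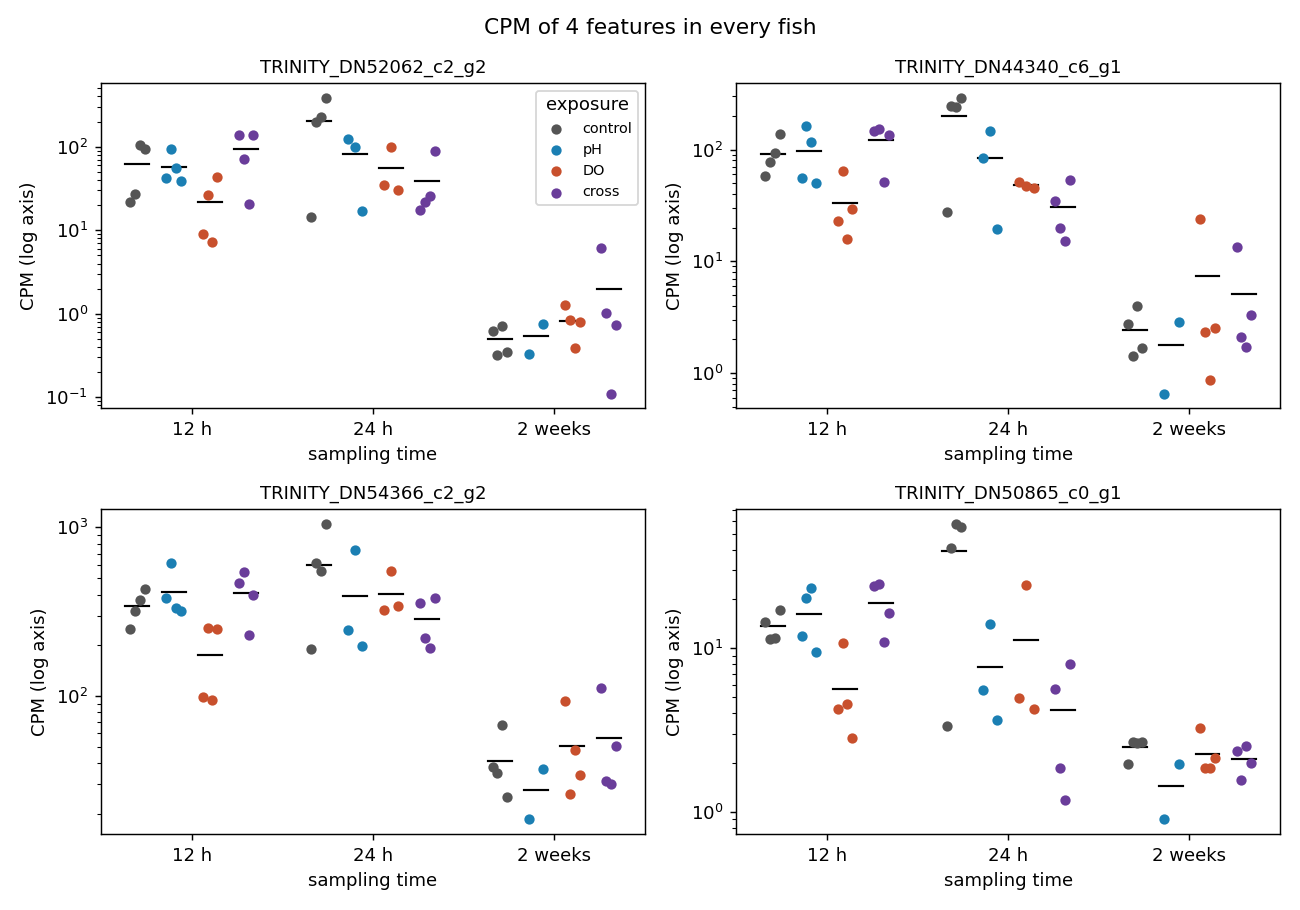
CPM in every fish (points) and group means (bars), on log axes, of the 2 members with the highest scores, the most abundant member and the member with the smallest p at 24 h. In TRINITY_DN52062_c2_g2 no 2 week fish reaches the lowest 12 h fish, and in all 4 panels control fish Mys25 is the lowest control fish of 24 h.

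Exposures were compared with control at 24 h, the time at which the rule fixed only the mean. The quasi-likelihood F test of edgeR was fitted on all 26357 features tested at 24 h, with Benjamini-Hochberg adjustment over all of them. No member was called at an adjusted p below 0.05 for pH, DO or cross, where 0% of all features were called in each comparison. At an unadjusted p below 0.05, 70 of the 150 members were lower in cross than in control and 5 higher, where 8.83% of all features tested were lower and 7.14% higher. Among the candidates 10.9% were lower. The median log2 fold change of cross against control was -0.73 over the members, -0.00 over all features and -0.11 over the candidates, with 28 members above 0.

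In DO against control at 24 h, 27 members were lower and 2 higher at an unadjusted p below 0.05, where 4.29% and 2.19% of all features were, and the members' median log2 fold change was -0.43 (all features -0.07). In pH, 19 members were lower and 5 higher, where 5.2% and 3.15% of all features were, with a median of -0.31 (all features -0.10). Both counts moved with the fish left out. For DO they were 48 without control fish Mys25, 9 without control fish Mys28 and 8 without DO fish Mys34 or Mys36, where 7.85%, 2.07%, 1.68% and 1.41% of all features were lower. For pH they were 39 without control fish Mys25, 7 without control fish Mys28, 12 without pH fish Mys30 and 3 without pH fish Mys32, where 7.49%, 4.25%, 3.28% and 2.1% were lower. All 3 comparisons share the 4 control fish, so their shared direction is no separate observation. Side by side, 96 members were below 0 in all 3 and 20 above 0 in all 3. The same shares over all features were not counted, so nothing is read from these numbers. The smallest adjusted p of a member by edgeR was 0.199 in cross, 0.581 in pH and 0.76 in DO.

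By edgeR with its filter on low counts, the call in cross turned on a control fish. With fish Mys25 left out, edgeR called 35 members, all of them lower in cross, where 3.92% of all features tested were called. With any other fish of the pair of groups left out it called 0. The median log2 fold change over the members stayed below 0 with each fish left out, from -0.92 to -0.52, and the number lower at an unadjusted p below 0.05 ran from 41, without control fish Mys28, to 80, without cross fish Mys7071, where 5.7% and 10.6% of all features were lower. Leaving out cross fish Mys7069 gave 45 and leaving out Mys7070 gave 44, where 4.82% and 5.07% were. With all fish, DESeq2 called 21 members, all lower, where 2.05% of all features were called. limma with voom and quality weights called 39, of which 38 were lower, where 3.79% were called. Without a filter on low counts edgeR called 28 with all fish, of which 27 were lower, where 0.867% were called.

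Summed over the members, the control fish of 24 h stood at 4362 CPM in fish Mys25, 10743 in fish Mys26, 12453 in fish Mys27 and 15079 in fish Mys28. The 4 cross fish stood at 6015, 5657, 4423 and 7883 CPM. Fish 25 was below every cross fish and the other 3 control fish were above every cross fish. By library total these 3 sums were also the highest of all 44 fish, the next being 10668 CPM in cross fish Mys7064 of 12 h. Under TMM scaling fish Mys26 and Mys27, at 9779 and 9397 CPM, were below fish Mys7067 and Mys15 of 12 h, at 11559 and 10371. Which of the 4 control fish is unusual was not tested. The 100 features with the highest mean CPM over all libraries took 59.5% of the counts of fish Mys25. They took 46.1% to 50.2% in the other control fish and 51% to 59.8% in the cross fish. Their part in the difference was not tested. Under TMM scaling the other 3 control fish were again above every cross fish, and fish Mys25, at 5108 CPM, lay inside the cross range of 3672 to 7255.

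With all 4 control fish, 2 members stood higher in every control than in every cross fish of 24 h, where 2.06% of the candidates did, and 2 the other way round, where 2.58% did. Leaving out fish Mys25, a choice made after its values were seen, 73 members were above in all 3 remaining control fish, where 21.7% of the candidates were, and 3 were below, where 5.56% were.

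The member with the smallest p at 24 h was TRINITY_DN50865_c0_g1. Control fish Mys25 to Mys28 stood at 3.35, 40.7, 57.5 and 55.3 CPM, and cross fish Mys7068 to Mys7071 at 5.64, 1.85, 1.18 and 8.04. Fish 25 fell among the cross fish and the 3 other control fish lay far above all of them. The 3 pH fish stood at 5.55, 14 and 3.64 CPM and the 3 DO fish at 4.94, 24.4 and 4.26, all of them under the 3 higher control fish. The log2 fold change of cross against control was -3.22 (SE 0.71) with an edgeR p of 0.000442 and an adjusted p of 0.199. With each fish left out in turn it lay between -3.82 and -2.89, and the adjusted p between 0.0118, without fish Mys25, and 0.46. At 12 h the control fish of this member stood at 14.5, 11.3, 11.5 and 17 CPM and the cross fish at 23.9, 24.6, 10.9 and 16.3, so they overlapped. At 2 weeks all 14 fish were between 0.898 and 3.24 CPM.

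TRINITY_DN44340_c6_g1, second by score, showed the same order at 24 h. Control fish Mys25 to Mys28 stood at 27.4, 247, 240.1 and 288 CPM, cross fish Mys7068 to Mys7071 at 35, 19.9, 15.1 and 53.6, and DO fish at 51.4, 47.4 and 45.7. Fish 25 again lay inside the cross range and the 3 other control fish above all fish of the other exposures. Against control, cross had an edgeR log2 fold change of -2.67 (SE 0.63) and an adjusted p of 0.199, or 0.0147 without fish Mys25. At 2 weeks its 14 fish ran from 0.653 to 23.8 CPM with a median of 2.43, and DO fish Mys57 and cross fish Mys7076 held the 2 highest values.

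The size of the cross difference at 24 h varied along the list. Over the 50 highest scores the median log2 fold change of cross against control was -1.13, over ranks 51 to 100 it was -0.55 and over ranks 101 to 150 it was -0.39. At an unadjusted p below 0.05 by edgeR, 28, 21 and 21 members of these ranks were lower and 1, 2 and 2 higher. Of all features tested 8.83% were lower and 7.14% higher. The medians of the same ranks were -0.66, -0.47 and -0.26 for DO and -0.38, -0.37 and -0.25 for pH. Across the 150 members the log2 fold change at 24 h had a Spearman rho with the score of -0.23 for cross, -0.16 for DO and -0.03 for pH. With the mean fall from 12 h to 2 weeks over the 4 exposures the rho was -0.47 for cross, -0.41 for DO and -0.32 for pH. These describe features of the same libraries, which share their control fish and their depth, and they carry no p. The spread of a member within groups had a like relation to the fold change, with a rho of -0.50 for cross, -0.45 for DO and -0.34 for pH. Members further below control thus tended to have the larger spread. That spread is taken over all groups, so it includes the 24 h fish that give the fold change.

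**Figure D4:**
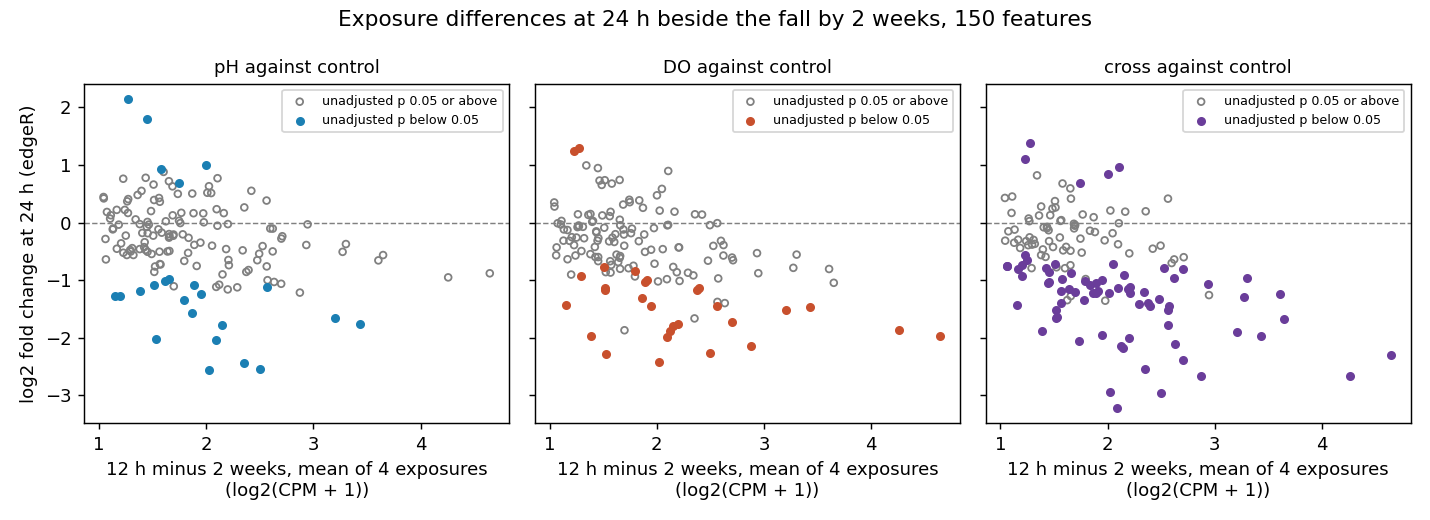
Log2 fold change of each exposure against control at 24 h (edgeR) against the fall from 12 h to 2 weeks in log2(CPM + 1), mean of the 4 exposures, for the 150 features; filled points have an unadjusted p below 0.05. In the cross panel 70 features are filled below 0 and 5 above, and the 3 panels share their control fish.

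At 12 h and 2 weeks, times whose levels chose the members, exposure differences are given as descriptions, and nothing is read from the calls. The median log2 fold change against control at 12 h was -0.49 over the members in DO, -0.02 in pH and 0.02 in cross, and 0.00, -0.01 and 0.03 over all features tested. edgeR called 0 of the 150 in each comparison at 12 h, where 0% of all features were called. At 2 weeks, where 148 members were tested, the medians were -0.06 in pH, 0.38 in DO and 0.36 in cross, and -0.07, 0.01 and 0.01 over all features. Of these members 0 were called, where 0.124% of all features were called in pH, 0.00376% in DO and 0% in cross.

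Within groups the members varied together from fish to fish. After removing the group means, the median correlation between pairs of members over the 44 fish was 0.45, against 0.31 between pairs of candidates. Much of the candidates' value went with the scaling, since under TMM it was 0.06 while the members' was 0.38. The 150 candidates with the opposite course, higher at 2 weeks by the mirrored rule, had 0.50 and 0.26. With the candidates' median in each fish also taken off after TMM scaling, the members had 0.33 and the opposite set 0.30. The candidates then had -0.005. These are correlations across features of shared libraries and are given without a p. The spread within groups was a median SD of 0.61 on the log2 scale for the members and 0.43 for the candidates.

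The shared variation can be read fish by fish. In control fish Mys25 of 24 h the members lay on average 1.07 below their group mean on the log2 scale, and 21 of the 150 were above it. The candidates of that fish lay 0.38 below theirs, and under TMM scaling the members lay 0.75 below, with 35 above. In cross fish Mys7076 of 2 weeks the members lay 0.72 above, with 146 of the 150 above the group mean, and the candidates 0.23 above. Under TMM scaling the members of that fish lay 0.50 above, with 136 above. In DO fish Mys22 of 12 h they lay 0.51 above by library total, with 138 above, and the candidates 0.09 above. The member with the largest spread, at an SD of 1.24, was highest in control fish Mys27 of 24 h, at 119 CPM, and cross fish Mys7069 of 24 h, at 88.5 CPM. By library total 136 of the 150 members were above the group mean in Mys27 and 44 in Mys7069. In this member Mys27 thus went with the shared variation and Mys7069 departed from it. Control fish Mys25 held 26.2 CPM, above the median of its group, 21.9, and its lowest fish, 11.4, but below the group's mean CPM, 43.5. Fish Mys25 was thus not the lowest control fish of 24 h in this member, as it was in the members' mean level. The member with the smallest spread, at an SD of 0.31, ran from 100.4 to 213 CPM at 12 h, from 129 to 279 at 24 h and from 43.2 to 102 at 2 weeks.

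To see the fall in fish that had no part in the choice, the 150 were chosen anew with each fish left out, and each member's level in that fish was set against the means of its exposure at 12 h and at 2 weeks. In the 16 fish of 12 h, 56% to 100% of the members lay nearer the mean of 12 h, with a median of 93.3%. In the 14 fish of 2 weeks, 47.3% to 100% lay nearer the mean of 2 weeks, with a median of 95.3%. The same share over all candidates was 42.3% to 79.3% (median 62.1%) at 12 h and 38.2% to 74.7% (median 68.1%) at 2 weeks. For pH fish Mys53 and Mys54 of 2 weeks, the mean of that time was the level of the other fish alone. The candidates' median differences, -0.22 in control to 0.29 in pH, are signed and do not measure the size of their gaps. Members were chosen for a large gap between these means, and the candidates were not. A larger share of members than of candidates is therefore built into the choice in part, and these shares are descriptions. Lowest were DO fish Mys21 and Mys23 of 12 h, both at 56%, where the candidates stood higher, at 65.5% and 58.8%. DO fish Mys57 of 2 weeks stood at 47.3% and cross fish Mys7076 of 2 weeks at 56.7%, where the candidates stood at 42.1% and 48.2%.

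**Figure D5:**
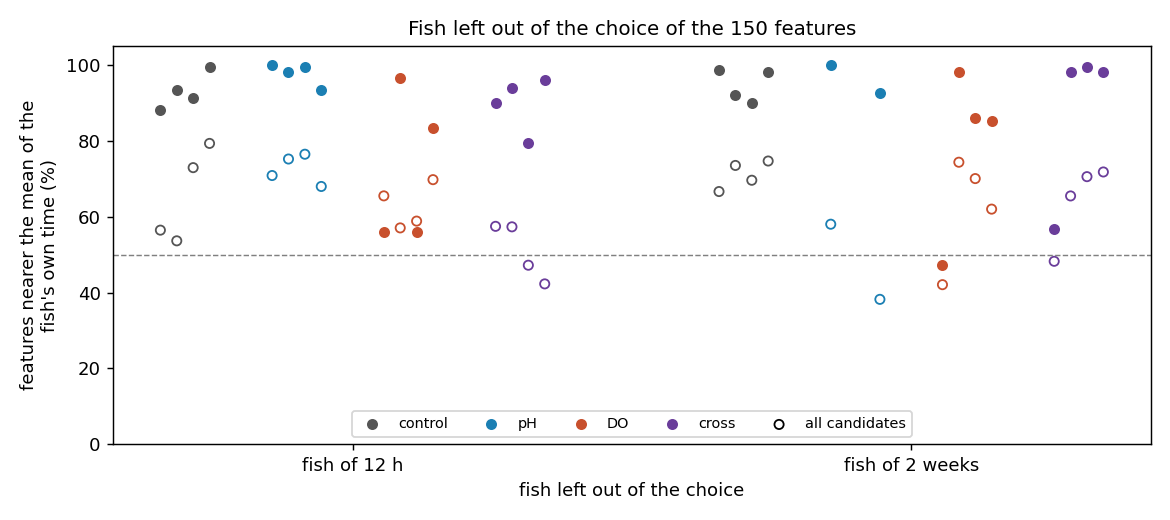
For each fish of 12 h and 2 weeks left out of the choice, the share of the 150 features then chosen (filled) and of all candidates (open) whose level in that fish is nearer the mean of its own time than that of the other, within its exposure; the dashed line marks equal shares. The medians of the filled points are 93.3% at 12 h and 95.3% at 2 weeks, and DO fish Mys57 of 2 weeks lies lowest, at 47.3%.

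The 150 members lay in 146 Trinity components (groups of contigs that the assembler joined), of which 4 held 2 members each, so a few members may come from 1 gene. In the component with the highest summed score, picked among the 4 after values were seen, the pair of members followed each other closely. Medians of the first were 27.3, 20.5 and 0.520 CPM at 12 h, 24 h and 2 weeks and those of the second 19.2, 13.7 and 0.410. At 24 h the first stood at 12.2, 55.8, 88.3 and 128 CPM in control fish Mys25 to Mys28 and the second at 5.81, 42.1, 65.4 and 98.7, so fish Mys25 was lowest in both. Other features of these 146 components were looked at for the same course. Of the 51 with a mean of at least 5 CPM, 19.6% were lower at 2 weeks in all 4 exposures. Of all 8481 features of that level outside the list 22.7% were. The median fall of the 51 was -0.04. At a mean of at least 1 CPM the order was reversed, at 26.2% of 103 such features against 20.4% of 18689 outside the list.

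Where assembled copies are nearly alike, their shared reads may have been divided between them. Values that were not whole numbers, as such division gives, made up 63.1% of the members' values, 59% of the candidates' and 9.60% of all. The last share counts zeros as whole numbers, and 83976 features were at 0 in every library. The candidates are therefore the nearer comparison.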

How the data were processed

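RNA of white muscle was sequenced from 44 fish. The authors deposited a table of expected counts for each time, without normalization. Tools named in the submitters' processing notes are RSEM 1.3.0, Bowtie, edgeR, Trimmomatic 0.36 and FastQC 0.11.5. How the features were assembled, and in which of the randomized sets named by the labels' protocols each stranded library was made, is not stated in the sources used here.

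Groups came from sample titles. The members and the rule for named features were chosen with earlier results of these data known. That rule took the members with the 2 highest scores, the 2 highest mean CPM, the 2 on each side of the limit, the smallest p at 24 h, the component with the most members, and the largest and smallest spread. Identifiers are printed for 4 of these.

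CPM used column totals and a pseudocount of 1. Counts were rounded and tested in R 4.3.3 with edgeR 4.0.16 (quasi-likelihood F test, robust, TMM scaling; filterByExpr at its minimum count, 10, and minimum total, 15). Tests were two-sided, with all groups of a time in 1 fit, with a threshold of 0.05 on the Benjamini-Hochberg adjusted p. The procedure was tested on simulated data in which features varied independently, unlike the members here, and nothing is read from that run. DESeq2 1.42.0, limma 3.58.1 with voom and quality weights, RLE factors, other filters, fits of the compared groups alone, and the loss of each fish in turn were alternatives. Totals of 9884996 to 36692935 counts, and the number and spread of the fish in a group, limit the precision.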

Additional observations from a re-analysis of the deposited data

Results flagged for a closer look

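Over the members' mean level, the 13 features that the rule for naming gave, the pair just outside the list included, and the 9 groups of 4 fish, 126 sets of 4 values were examined for a fish far from the other 3 (Dixon's ratio at its 95% level). Chance marks about 1 in 20 such sets, and 7 were marked. The members' mean level was marked in no group, control at 24 h included. Values are log2(CPM + 1) unless given as CPM. In TRINITY_DN44340_c6_g1, control fish Mys25 of 24 h was far below its group at 4.83, and cross fish Mys7066 of 12 h at 5.72. In TRINITY_DN50865_c0_g1, control fish Mys25 of 24 h was far below at 2.12. Control fish Mys49 of 2 weeks was marked as lowest at 1.56, in a group that spanned only 1.95 to 2.68 CPM. In the component pair, cross fish Mys7066 of 12 h was lowest in the first member at 3.79, and DO fish Mys57 of 2 weeks highest in the second at 2.45. In the member with the smallest spread, cross fish Mys7071 of 24 h was highest at 7.85. Features share their fish, so these marks are not independent.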

How the results depend on the processing

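The list itself was kept in part under other settings. Of the 150 members, 134 remained with TMM scaling, 144 and 139 with pseudocounts of 0.5 and 2, 113 with medians of fish in place of means, 104 with the mean over exposures, 131 without pH and 82 with a 24 h window of 0.25, a window that by construction admits fewer candidates. With each fish left out 124 to 150 remained, and 71 members stayed in all 44 choices. Shares in brackets are those of all features under the same setting. Without a filter on low counts edgeR called 4 members for DO at 12 h (0.123%), 3 for pH (0.116%), 3 for DO (0.101%) and 28 for cross (0.867%) at 24 h, and 3 for pH (0.499%), 4 for DO (0.168%) and 1 for cross (0.0624%) at 2 weeks. DESeq2 called 1 for DO at 12 h (0.117%), 21 for cross at 24 h (2.05%) and 4 for pH at 2 weeks (2.84%). limma voom called 39 for cross at 24 h (3.79%), and at an unadjusted p below 0.05 it put 46 members lower in pH (8.98%) and 48 lower in DO (12%) at 24 h. A fit of only the groups compared put 12 lower in pH (4.35%). The cause was not tested. With each fish left out, the number called ran from 0 to 35 for cross at 24 h (3.92% without control fish Mys25) and 0 to 2 for pH at 2 weeks (3.17% without pH fish Mys54). The number lower at an unadjusted p below 0.05 at 24 h ran from 41 to 80 for cross, 8 to 48 for DO and 3 to 39 for pH. The median over the members ran from -0.37 to 0.041 for pH at 2 weeks, and the fall from 12 h to 2 weeks in pH from 1.90 to 2.78. A test of the change from 12 h to 24 h in each exposure against that in control is not reported, since it rests on the 12 h levels that chose the members. Medians near 0 over the members (pH and cross at 12 h and pH at 2 weeks) took either sign under some settings. No paired analysis was possible because fish numbers differ between groups. Groups of 2 to 4 fish and unknown aquaria limit the precision of every comparison.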
